A study of Homo sapiens with 17 samples.

Results

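Glycolysis turns glucose into pyruvate in the cytosol, and lactate dehydrogenase can then turn pyruvate into lactate. Hexokinase and phosphofructokinase carry out committed early steps, the later enzymes recover ATP, and most mammalian steps can be run by several isozymes encoded by separate genes. Proliferating and RAS-driven cells are known for a high flux through this pathway.

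The 10 glycolytic enzymes described here, HK1, HK2, GPI, PFKP, ALDOA, GAPDH, PGK1, ENO1, PKM2 and LDHA, were chosen by name as 1 or 2 isozymes of most steps of the pathway, and all 10 were found among the 9699 rows of the table. The rule itself used no measured value, although earlier results of these data were known when it was set. Each gene is represented by 1 transcript: HK1 by ENST00000448642, HK2 by ENST00000290573, GPI by ENST00000415930, PFKP by ENST00000381125, ALDOA by ENST00000395248, GAPDH by ENST00000229239, PGK1 by ENST00000373316, ENO1 by ENST00000234590, PKM2 by ENST00000319622, LDHA by ENST00000540430. Messenger RNA was measured by RNA-Seq, and ribosome-protected fragments, which report how many ribosomes sit on a message, by Ribo-Seq, in human BJ fibroblasts, foreskin fibroblasts immortalized with hTERT (the catalytic subunit of telomerase). The 17 libraries, 9 of RNA-Seq and 8 of Ribo-Seq, came from cells that carried hTERT in every group. They were proliferating under normal conditions, made quiescent by serum depletion, pre-senescent after 5 days or senescent after 14 days of 4-OHT-tamoxifen acting on an inducible RASG12V, or transformed by a retroviral RASG12V together with stable p53 and p16INK4A knockdown and SV40 small T. Whether the proliferating and quiescent cells also held the inducible RASG12V was not stated.

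Each value is in FPKM, fragments per kilobase of transcript scaled to the reads of the library, and each condition has a single column per assay. The quiescent columns, the first proliferating columns and the pre-senescent RNA-Seq column each stand for 2 libraries, and the remaining 7 columns for 1 library. There was therefore no spread between replicates and no test was possible; a difference is described against 2-fold, an absolute log2 change of 1. The table holds no counts; the study lists the reads of each library, and these were not used here. Quiescent and pre-senescent cells were set against the proliferating column of run 1, and senescent and transformed cells against that of run 2. The distance between both proliferating columns served as a scale, although it also contains the difference between sequencing runs.

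The Ribo-Seq libraries titled for run-2 proliferation and for senescence carry each other's condition label, and the titles were followed here. With the titles, the senescence changes in RNA-Seq and Ribo-Seq correlated across 9699 rows at r = 0.83, as a description across genes that share a library; 9 of 9 measured proliferation markers were lower and 5 of 5 senescence markers higher in the senescent columns of both assays. Exchanging the libraries turns the sign of every Ribo-Seq change between senescence and proliferation given below, and replaces the Ribo-Seq control of the transformed cells. The exchange would also set all of these proliferation and senescence markers in opposite directions in RNA-Seq and Ribo-Seq. In the column labelled transformed, CDKN2A, which encodes p16INK4A, was at 12.6 FPKM of mRNA against 6.75 FPKM in the proliferating column of run 2. The row stands for 1 transcript of the gene, and whether it reports p16INK4A alone was not checked. Run-1 proliferation had 17.2 FPKM of CDKN2A mRNA. CDKN2A footprints were lowest in the transformed column, at 5.51 FPKM against 8.92 FPKM in run-2 proliferation. HRAS mRNA was at 2415, 1254 and 2102 FPKM in run 1 and 1284, 2087 and 312 FPKM in run 2, lowest in the column labelled transformed. For fibroblast identity, 13 of 14 markers had a row and 9 of these stayed above 10 FPKM in every RNA-Seq column, while 3 of 15 markers of other cell types had a row (KRT18, CD68 and MITF) and 2 of these stayed above 10 FPKM. KRT18, a keratin of simple epithelia, was between 84.5 and 257 FPKM of mRNA, and the 3 summed to between 182 FPKM in senescence and 338 FPKM in run-2 proliferation. The summed mRNA of the fibroblast markers was lowest in senescence, at 5567 FPKM, and highest in run-2 proliferation, at 8371 FPKM. The markers did not move alike between these columns. VIM, the highest of them, was at 3943 FPKM in senescence and 2956 FPKM in run-2 proliferation. COL1A1 was at 51.6 and 1328 FPKM, and COL1A2 at 531 and 1611 FPKM, in the same order. The part of such shifts in the results below was not tested, and in such bulk samples fewer cells of a kind and less RNA per cell cannot be told apart.

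Values below follow, for each run, the order proliferating, quiescent and pre-senescent for run 1 and proliferating, senescent and transformed for run 2. Changes are log2 differences from the proliferating column of the same run unless another pair is named, and where a pair of changes is given without the assay, RNA-Seq comes first and Ribo-Seq second. The enzymes differed widely in level. GAPDH, which oxidizes glyceraldehyde 3-phosphate, had the highest level of the 10, between 2663 and 3774 FPKM of mRNA, and ranked 3 to 6 among all rows. HK2 had the lowest level in all columns except senescence, where PFKP lay below it in both assays and HK1 also did in Ribo-Seq. The summed FPKM of the 10 enzymes took 1.80% to 2.42% of the table's RNA-Seq total and 1.68% to 2.84% of its Ribo-Seq total.

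The largest change among the enzymes was that of PFKP, the platelet-type phosphofructokinase that phosphorylates fructose 6-phosphate, which was lower in senescence. PFKP mRNA was at 172, 122 and 158 FPKM in run 1 and 106, 30.0 and 82.9 FPKM in run 2. The senescent column lay below all other columns, and those of run 2 lay below all of run 1. PFKP footprints were at 226, 158 and 183 FPKM in run 1 and 106, 35.0 and 91.2 FPKM in run 2. Against run-2 proliferation, senescent cells had a PFKP change of -1.82 in RNA-Seq and -1.59 in Ribo-Seq, 3.54-fold and 3.02-fold lower, and 5.33% and 8.28% of all rows had a lower change. The change in transformed cells was -0.36 in RNA-Seq and -0.21 in Ribo-Seq, short of 2-fold against this control but -1.05 and -1.31 against the proliferating column of run 1. Senescent cells lay -1.47 and -1.38 from transformed cells. The proliferating columns themselves differed by -0.70 and -1.10, which is past 2-fold in Ribo-Seq.

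The muscle-type isozyme PFKM did not follow PFKP. PFKM mRNA was at 28.2, 25.4 and 45.2 FPKM in run 1 and 26.0, 41.3 and 32.7 FPKM in run 2. The PFKP to PFKM ratio of mRNA levels, per length, was 6.10, 4.79 and 3.496 in run 1 and 4.09, 0.725 and 2.54 in run 2, and that of footprints was 4.02, 3.88 and 2.16 in run 1 and 2.31, 0.536 and 1.77 in run 2. PFKP was the more abundant in every column but the senescent ones. The liver-type isozyme, PFKL, was looked for and had no row under that name.

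The hexokinases, which phosphorylate glucose on its entry into the cell, differed from each other. HK2 mRNA was at 34.0, 38.3 and 46.4 FPKM in run 1 and 29.1, 43.8 and 28.1 FPKM in run 2. HK2 footprints were at 65.8, 101 and 116 FPKM in run 1 and 56.9, 116 and 65.9 FPKM in run 2, so that the quiescent, pre-senescent and senescent columns were the highest of the 6. In senescence HK2 was 2.04-fold higher in Ribo-Seq, at 1.03, and 0.59 higher in RNA-Seq. This is just past 2-fold: it was 0.82 against the other proliferating column, 0.92 against the mean of both and 0.96 once changes were centred on highly expressed genes. In quiescence the Ribo-Seq change was 0.62, in pre-senescence 0.81 and in transformed cells 0.21, against a distance of -0.21 between both proliferating columns. The pre-senescence change was 1.02 against the proliferating column of run 2 and 1.03 once centred on highly expressed genes, both past 2-fold.

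HK1, the broadly expressed hexokinase, stayed within 2-fold in every comparison, although its pre-senescent Ribo-Seq change was 1.04 against the proliferating column of run 2. HK1 mRNA was at 113, 111 and 147 FPKM in run 1 and 73.3, 73.1 and 83.1 FPKM in run 2, and its footprints were at 175, 147 and 204 FPKM in run 1 and 99.1, 105 and 115 FPKM in run 2. Its largest change against a control was 0.37 in RNA-Seq of pre-senescent cells, and the runs differed by -0.63. The ratio of HK2 to HK1 footprints, per length, was 0.377, 0.689 and 0.568 in run 1 and 0.574, 1.11 and 0.575 in run 2, highest in senescence, the only column with more HK2 than HK1.

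LDHA, the lactate dehydrogenase subunit that favours lactate formation, was lower in senescence. LDHA mRNA was at 743, 775 and 673 FPKM in run 1 and 829, 452 and 578 FPKM in run 2. LDHA footprints were at 1804, 1506 and 1234 FPKM in run 1 and 2226, 1036 and 1485 FPKM in run 2, lowest in senescence in both assays. The senescence change was -0.88 in RNA-Seq and -1.10 in Ribo-Seq, 2.15-fold lower in the second. Against the other proliferating column the Ribo-Seq change was -0.80, against the mean of both -0.95, and after subtraction of the median change of all rows -0.98, each short of 2-fold. The centring on highly expressed genes took the RNA-Seq change to -1.13.

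LDHB, the heart-type subunit, had mRNA levels of 352, 289.5 and 452 FPKM in run 1 and 256, 373 and 372 FPKM in run 2. The LDHA to LDHB ratio of mRNA was 2.11, 2.68 and 1.49 in run 1 and 3.24, 1.21 and 1.55 in run 2, and of footprints 1.88, 2.90 and 1.496 in run 1 and 3.26, 1.14 and 1.68 in run 2. In both assays the ratio was lowest in senescence and highest in run-2 proliferation.

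The other 6 enzymes stayed within 2-fold of the control of the same run in each of the 4 comparisons and in both assays. GPI, which interconverts the hexose 6-phosphates, had mRNA levels of 89.4, 89.6 and 107 FPKM in run 1 and 67.7, 68.6 and 81.1 FPKM in run 2. Its footprints were at 274, 291 and 276 FPKM in run 1 and 205, 159 and 211 FPKM in run 2. Its largest change in either assay was -0.36, in senescent Ribo-Seq, which is about the distance of -0.42 between the proliferating columns.

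ALDOA, the aldolase that splits fructose 1,6-bisphosphate, had mRNA levels of 549, 606 and 515 FPKM in run 1 and 575, 784 and 428 FPKM in run 2. Its footprints were at 1540.1, 1859 and 1423 FPKM in run 1 and 1430.5, 1482 and 959 FPKM in run 2. Its mRNA was highest in senescence and lowest in transformed cells. Transformed cells had -0.43 in RNA-Seq and -0.58 in Ribo-Seq, and senescent cells exceeded transformed cells by 0.87 and 0.63, with the proliferating columns 0.07 and -0.11 apart.

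GAPDH had mRNA levels of 3424, 3774 and 3741 FPKM in run 1 and 2793, 3198 and 2663 FPKM in run 2. Its footprints were at 6577, 5880.2 and 6332 FPKM in run 1 and 5764, 4422 and 4616 FPKM in run 2. The senescent and transformed Ribo-Seq columns were the lowest, with changes of -0.38 and -0.32, beside 0.20 and -0.07 in RNA-Seq. GAPDH lay nearest to the median profile of the 10 enzymes, with a root mean square difference of 0.119 over 8 log2 changes, whereas HK2 (0.697) and PFKP (0.835) lay farthest.

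PGK1, which makes ATP from 1,3-bisphosphoglycerate, had mRNA levels of 126, 152 and 133 FPKM in run 1 and 196, 153 and 127 FPKM in run 2. Its footprints were at 779.9, 806 and 551 FPKM in run 1 and 1015, 689 and 740.1 FPKM in run 2. Run-2 proliferation was highest in both assays. Its RNA-Seq changes were 0.27 in quiescence, 0.07 in pre-senescence, -0.36 in senescence and -0.63 in transformed cells, none larger than the 0.64 between the proliferating columns. Its Ribo-Seq changes were 0.05, -0.50, -0.56 and -0.46 in the same order, with the proliferating columns 0.38 apart.

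ENO1, the enolase, had mRNA levels of 2089.6, 1917 and 2173 FPKM in run 1 and 1086, 836 and 1216 FPKM in run 2. Its footprints were at 3244, 2653 and 2455 FPKM in run 1 and 1879.6, 1182 and 1984 FPKM in run 2. It was lowest in senescence, at -0.38 and -0.67, yet the proliferating columns were -0.94 and -0.79 apart, so the change was smaller than the distance between runs. Against run-1 proliferation the same change was -1.32 and -1.46, and in Ribo-Seq -1.06 against the mean of both. The pre-senescent RNA-Seq change was just past 2-fold, at 1.00, against run-2 proliferation.

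The PKM2 row, which stands for the pyruvate kinase gene PKM as 1 transcript and does not separate its M1 and M2 splice forms, had mRNA levels of 1409.6, 1709.8 and 1332 FPKM in run 1 and 1530.1, 2003 and 1633 FPKM in run 2. Its footprints were at 3961, 5007 and 3599 FPKM in run 1 and 3096, 3544 and 3314 FPKM in run 2. Its changes reached 0.39 in senescent RNA-Seq and 0.34 in quiescent Ribo-Seq. All 10 rows come from unique alignment to 1 coding transcript per gene, and reads from processed pseudogenes, which GAPDH, PGK1, ENO1 and LDHA are known to have, could not be told apart from those of the gene where their sequence is alike.

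Counted over comparisons, few of the enzymes passed 2-fold. In quiescence 0 of 10 did in RNA-Seq, Ribo-Seq or TE, beside 6.53%, 17.5% and 8.00% of all rows. In pre-senescence it was again 0 of 10 in each, beside 3.87%, 17.9% and 14.8%. In senescence 1 of 10 passed in RNA-Seq (PFKP), 3 of 10 in Ribo-Seq (HK2 higher, PFKP and LDHA lower) and 0 in TE, beside 20.4%, 28.0% and 9.52% of all rows, so that the share of the enzymes was near or under the background. In transformed cells it was 0 of 10 in each, beside 10.4%, 12.8% and 3.43%. Between the proliferating columns 0 passed in RNA-Seq, 1 in Ribo-Seq (PFKP) and 0 in TE, beside 7.97%, 18.9% and 9.80%. Between senescent and transformed cells 1 passed in RNA-Seq and 1 in Ribo-Seq, PFKP in both, and 0 in TE, beside 23.5%, 30.3% and 6.65%. The all-row shares include rows near the floor of 1 FPKM, and the study names larger variation among transcripts of low level. Every enzyme was at 28.1 FPKM or more in each column, so these shares are not a background of like level.

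The median change of the 10 enzymes was small. In RNA-Seq it was 0.10 in quiescence, 0.06 in pre-senescence, 0.01 in senescence and -0.06 in transformed cells, beside medians of -0.01, 0.04, -0.02 and 0.09 over all rows. In Ribo-Seq it was -0.06, -0.13, -0.37 and -0.09, beside -0.07, -0.12, -0.12 and 0.01. The enzymes' median also differed by -0.26 in RNA-Seq and -0.28 in Ribo-Seq between both proliferating columns, so none of the RNA-Seq medians reached that distance and only the senescence median in Ribo-Seq exceeded it. The direction of the small medians depended on the control and on centring: the quiescence median in Ribo-Seq became 0.50 against the other run's control and 0.22 after centring on highly expressed genes, and the pre-senescence median 0.30 and 0.09.

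Translation efficiency (TE), the log2 ratio of Ribo-Seq to RNA-Seq FPKM, separated the enzymes more than the conditions did. PGK1 had the highest TE of the 10 in every condition, 2.63, 2.40 and 2.06 in run 1 and 2.37, 2.17 and 2.54 in run 2, above 96.1% to 98.3% of all rows. PFKP was among the lowest, at 0.39, 0.38 and 0.21 in run 1 and -0.01, 0.22 and 0.14 in run 2. GPI was at 1.62, 1.70 and 1.37 in run 1 and 1.60, 1.22 and 1.38 in run 2, and HK2 at 0.95, 1.40 and 1.32 in run 1 and 0.97, 1.41 and 1.23 in run 2. The median TE of the enzymes lay between 0.87 and 1.18, and that of all rows between 0.22 and 0.40, with 8 to 10 of the 10 enzymes above the all-row median in each condition. As RNA-Seq counts the whole transcript and Ribo-Seq only the coding sequence, differences in TE between genes also hold the length and coverage of their untranslated parts.

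HK2 was the only enzyme with a higher TE in all 4 comparisons. Its changes were 0.45 in quiescence, 0.37 in pre-senescence, 0.44 in senescence and 0.26 in transformed cells, with the proliferating columns 0.01 apart. In the same order, 83.2%, 77.5%, 79.5% and 81.5% of all rows had a lower TE change. Over all rows, the TE difference between the proliferating columns had quartiles of -0.30 and 0.39. Quiescence and pre-senescence share a control, as do senescence and transformed cells. With the Ribo-Seq libraries exchanged, the HK2 values in senescence and transformed cells were -1.62 and -0.77. GAPDH had a lower TE in each, -0.30, -0.18, -0.58 and -0.25, but 0.14 in pre-senescence after centring on highly expressed genes, and 0.19 and 0.13 in senescence and transformed cells with the libraries exchanged. The TE was lower in 6, 9, 7 and 5 of the 10 enzymes in quiescence, pre-senescence, senescence and transformed cells, with medians of -0.09, -0.18, -0.21 and -0.03 beside -0.06, -0.14, -0.04 and -0.07 over all rows. After centring on highly expressed genes the quiescence and pre-senescence medians became 0.16 and 0.14. Over 77 cytosolic ribosomal protein rows the TE medians were -1.11, -0.61, -0.68 and -0.03, and over 72 respiratory chain rows -0.30, -0.55, -0.62 and -0.38. None of the 10 enzymes reached a 2-fold change in TE.

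Other genes of the pathway were taken from a list of isozymes, regulators, transporters and neighbouring branches, of which 42 had a row, chosen with earlier results known. Past 2-fold, 2 were higher and 0 lower in quiescent RNA-Seq, 0 and 0 in pre-senescence, 2 and 2 in senescence and 1 and 0 in transformed cells. In Ribo-Seq the counts were 4 higher and 2 lower, 2 and 3, 6 and 3, and 2 and 0. In TE they were 1 and 0, 1 and 2, 0 and 2, and 0 and 1. These counts stand against the shares of all rows given above for the same comparisons.

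Among the enzymes and isozymes, TPI1, which interconverts the triose phosphates, had footprint levels of 1378, 1139 and 910.2 FPKM in run 1 and 1319, 544 and 969.9 FPKM in run 2 and a senescence change of -1.28 in Ribo-Seq against -0.63 in RNA-Seq. PGAM1, the phosphoglycerate mutase, was within 2-fold throughout, at 0.24 and -0.38 in senescence. ALDOC, a second aldolase, had mRNA levels of 10.1, 44.2 and 11.0 FPKM in run 1 and 20.1, 8.69 and 10.3 FPKM in run 2, 2.13 higher in quiescence and -1.21 in senescence, with 1.73 and -1.29 in Ribo-Seq, although run-2 proliferation lay 0.99 above run 1. ADPGK, an ADP-dependent glucokinase, was 1.34 higher in senescent Ribo-Seq. BPGM, which makes 2,3-bisphosphoglycerate, was at 1.04 FPKM of footprints in run-1 proliferation, next to the authors' floor of 1, and no fold is given for it.

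Of the regulators of fructose 2,6-bisphosphate, which activates phosphofructokinase, PFKFB3 mRNA was at 29.6, 35.9 and 30.9 FPKM in run 1 and 20.5, 14.0 and 57.2 FPKM in run 2. It was 1.48 higher in transformed RNA-Seq and 1.52 in Ribo-Seq, with -0.55 and -0.28 in senescence. PFKFB4 was 1.35 higher in quiescent RNA-Seq and 1.27 in Ribo-Seq. In transformed cells PFKFB4 was at 0.94 in RNA-Seq and -0.83 in Ribo-Seq, a TE change of -1.77, and in senescence at 0.66 and -0.60, a TE change of -1.25. Its run-2 levels were low, at 4.19, 6.60 and 8.03 FPKM of mRNA and 3.92, 2.59 and 2.21 FPKM of footprints. The footprints lay near the floor of 1, so these TE changes are uncertain. C12orf5, the fructose bisphosphatase TIGAR, had mRNA levels of 11.3, 9.22 and 15.2 FPKM in run 1 and 16.4, 50.4 and 15.8 FPKM in run 2, and was 1.62 higher in senescence in RNA-Seq and 1.19 in Ribo-Seq, with -1.06 in quiescent Ribo-Seq.

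Among transporters, SLC2A3, a high-affinity glucose carrier, had footprint levels of 17.8, 30.9 and 38.4 FPKM in run 1 and 19.9, 68.5 and 24.5 FPKM in run 2, 1.78 higher in senescence beside 0.83 in mRNA, and 1.11 higher in pre-senescence. SLC2A1, the basal glucose carrier, was at -0.03 and 0.80 in senescence and 0.77 and 0.96 in transformed cells. SLC16A3, a lactate exporter, was at 0.91 and 0.81 in transformed cells. BRP44L, a subunit of the mitochondrial pyruvate carrier, was -1.25 in pre-senescent Ribo-Seq beside 0.25 in RNA-Seq, a TE change of -1.50.

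In the hypoxia and gluconeogenic branches, EPAS1, a hypoxia-inducible factor, was at -1.06 and -0.98 in senescence and -1.23 in pre-senescent Ribo-Seq. VHL, which targets such factors for degradation, was at -1.41 in senescent Ribo-Seq beside -0.24 in RNA-Seq, a TE change of -1.17. PCK2, the mitochondrial phosphoenolpyruvate carboxykinase, was at -1.32 in pre-senescent Ribo-Seq, and the proliferating columns lay -1.35 apart.

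Among the profiles of 8 log2 changes nearest to the median of the 10 enzymes, out of 3735 rows at 10 FPKM or more in all columns, were those of NANS (root mean square difference 0.0735), PGAM1 (0.105), SNX1 (0.117) and NUDCD3 (0.121). Of these, PGAM1 is itself a glycolytic enzyme. The median profile held only small changes, so rows that changed little lie near it. The 10 enzymes themselves lay between 0.119 (GAPDH) and 0.835 (PFKP) from it.

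The sequence CACGTG, a palindrome that reads alike on both strands and that MYC is known to bind, was looked for in the 250 bases before each annotated start in RefSeq (GRCh38.p14), as were ACGTG and GCGTG, the core that hypoxia-inducible factors are known to bind, on both strands; ACGTG lies inside the palindrome. The palindrome was found for 4 of the 10 enzymes and 7.73% of 27305 genes, ACGTG for 7 of 10 and 21.7%, and GCGTG for 6 of 10 and 36.2%. The enzymes have more annotated starts per gene than the average, and by window the palindrome was in 4 of 23 (17.4%) against 6.34% of 35116. Shares by window were not computed for ACGTG and GCGTG, so their shares by gene also hold this difference in starts. The windows of HK2 and LDHA are shown because these enzymes differed in opposite directions in senescent Ribo-Seq; capitals mark CACGTG.
HK2, chr2:74834964-74834993, plus strand: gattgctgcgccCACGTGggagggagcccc
HK2, chr2:74835009-74835038, plus strand: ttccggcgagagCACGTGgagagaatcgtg
LDHA, chr11:18394366-18394395, plus strand: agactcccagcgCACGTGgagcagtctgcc
LDHA, chr11:18394464-18394493, plus strand: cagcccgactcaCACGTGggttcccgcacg
The other 2 enzymes with CACGTG were GAPDH and ALDOA, and the changes of the 4 in senescent RNA-Seq were 0.59 for HK2, -0.88 for LDHA, 0.20 for GAPDH and 0.45 for ALDOA. A match is a description of the window, and binding was not measured.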

How the data were processed

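RNA-Seq and Ribo-Seq libraries of BJ fibroblasts were aligned by the authors with Bowtie (hg19 is named in the submitters' processing notes) to 1 coding transcript per Ensembl gene, using unique alignments. The deposited FPKM count all transcript reads for RNA-Seq and coding reads for Ribo-Seq, with values under 1 set to 1. How 5 of the 12 columns combine 2 libraries each is not given in the sources used here, and sequencing runs were taken from the study's methods. Here, log2 changes were computed for 6 comparisons and 3 measures in Python 3.11.15 with pandas 2.3.3, over rows with a value above 1, and the calculation was tested on simulated data. With no replicate columns and no counts in the table, no p-value, SD or interval was computed. The members and lists were chosen with earlier results of these data known. The isozyme ratios, shares of summed FPKM and the search for 3 promoter motifs were added after the values were seen. Named pathway genes were the 12 with the largest change past 2-fold and TPI1, PGAM1, LDHB, PFKM, SLC2A1, SLC16A3 and PFKFB3. PFKL, also in the rule, had no row under that name. Alternatives were other controls, centrings, filters, a pseudocount of 1, 1.5-fold and exchanged Ribo-Seq columns. A gene of the knockdown check and a gene of the nearest profiles are not reported here.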

Additional observations from a re-analysis of the deposited data

Results flagged for a closer look

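Some pathway genes had log2 changes of opposite sign in a pair of RASG12V conditions and at least 1 apart, a minimum set after the values were seen; the differences were not tested, each rests on 1 column per condition, and none of the 10 enzymes met it. Between day 5 and day 14, which also differ in run and control, ALDOC mRNA moved by -1.33 (0.12 to -1.21), C12orf5 footprints by 1.72 (-0.54 to 1.19), BRP44L footprints by 1.77 (-1.25 to 0.52) and SLC2A1 footprints by 1.14 (-0.35 to 0.80). For ALDOC the controls differed more than the RASG12V columns. Its mRNA was at 11.0 FPKM on day 5 and 8.69 FPKM on day 14, against controls at 10.1 and 20.1 FPKM. From senescent to transformed cells, which share a control, SLC2A3 mRNA moved by -1.06 (0.83 to -0.23). C12orf5 moved by -1.67 in mRNA (1.62 to -0.05) and by -1.63 in footprints (1.19 to -0.44). PFKFB3 moved by 2.03 in mRNA (-0.55 to 1.48) and by 1.80 in footprints (-0.28 to 1.52). VHL footprints moved by 1.60 (-1.41 to 0.20) and ADPGK footprints by -1.58 (1.34 to -0.23).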

How the results depend on the processing

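No paired analysis was possible because the columns carry no replicate numbers and no test was run; leaving out replicates, a replicate block and limma were not run for the same reason. The medians below shifted by more than the distance between both proliferating columns divided by the square root of 2, a spread chosen after the values were seen, and the counts by more than 1.5 times. Filters at 10 FPKM or none and log2(FPKM + 1) shifted neither for the enzymes. At 10 FPKM the number of all rows past the fold did shift, in all 6 comparisons of each measure, as fewer rows enter there. The table holds no counts, so no limit from depth was computed.

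At 1.5-fold, 1 enzyme passed in quiescent and 1 in pre-senescent Ribo-Seq, 3 in senescent and 1 in transformed RNA-Seq, 4 and 3 between the proliferating columns in RNA-Seq and Ribo-Seq, and 3 and 4 between senescent and transformed cells. The number of all rows past the fold also rose by more than 1.5 times at 1.5-fold, in all 6 comparisons of each measure. The 2-fold shares given above are thus no background for these counts. Centring on highly expressed genes gave 1 enzyme in pre-senescent Ribo-Seq and 2 in senescent RNA-Seq, and medians of 0.22 in quiescent and 0.085 in pre-senescent Ribo-Seq, -0.25 in senescent RNA-Seq, and 0.16, 0.14, -0.021 and 0.059 for TE in quiescence, pre-senescence, senescence and transformed cells, with -0.077 for TE between senescent and transformed cells. Median-centring gave TE medians of -0.042 in pre-senescence and 0.040 in transformed cells. Both centrings left the number of all rows past 2-fold within 1.5 times of its value without centring, in all 6 comparisons.

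Against the control of the other run, the medians in RNA-Seq, Ribo-Seq and TE were 0.30, 0.50 and 0.066 in quiescence, 0.50, 0.30 and -0.093 in pre-senescence, -0.24, -0.66 and -0.28 in senescence, and -0.36, -0.44 and -0.15 in transformed cells; 1 enzyme in pre-senescent RNA-Seq, 2 in pre-senescent Ribo-Seq, 2 in senescent RNA-Seq and 1 in transformed cells in each assay passed 2-fold. Against the mean of both proliferating columns the medians were -0.0022 for TE in quiescence, 0.25 in pre-senescent RNA-Seq, and -0.26 and -0.29 in transformed RNA-Seq and Ribo-Seq. With the other run's control the number of all rows past 2-fold also shifted, in 1 comparison in RNA-Seq, 1 in Ribo-Seq and 2 for TE. The shares given above therefore do not hold throughout for the counts with that control.

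Exchanging the run-2 proliferating and senescent Ribo-Seq columns turned the senescence changes of HK2, PFKP and LDHA in Ribo-Seq to -1.03, 1.59 and 1.10, and that of PFKP between senescent and transformed cells to 0.21. The medians in Ribo-Seq and TE became 0.37 and 0.27 in senescence, 0.12 and 0.14 in transformed cells, -0.66 and -0.33 between the proliferating columns, and 0.085 and 0.12 between senescent and transformed cells. The enzymes past 2-fold were then 4 for TE in senescence, 1 in Ribo-Seq and 2 for TE in transformed cells, 2 and 2 between the proliferating columns, and 0 and 1 between senescent and transformed cells. The number of all rows past 2-fold shifted as well, in 3 comparisons for Ribo-Seq and 4 for TE. The shares given above thus do not apply to these counts.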
